A study of Oryza sativa with 7 samples.

Results

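The libraries described here were the 3 wild-type (WT) libraries of a rice RNA-seq series, out of 7 libraries listed for the series. They were chosen by their genotype label alone, and all 35825 rows of the deposited table were kept. The plants were Oryza sativa of the cultivar Kitaake, grown in paddy fields, and the grains were taken 2 days after fertilization. The other libraries came from the mutant lines osbzip76-1 and osbzip76-2 and enter no result below. Per the series description, the 3 WT libraries were biological replicates, and a hot summer had already brought endosperm cellularization forward at this time. The tissue label is caryopsis, while the extraction protocol names endosperm as the source of the RNA, so the labels do not settle how much maternal tissue was in the tubes. All 3 libraries were made from bulk RNA selected with poly-T beads, so that fewer cells of a type and less RNA per cell cannot be told apart in any level below.

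The rice caryopsis is a single-seeded fruit. Its maternal layers, the pericarp, the seed coat and the nucellus, enclose the products of double fertilization, the embryo and the endosperm. The young endosperm is a syncytium of free nuclei that then forms cell walls, and only later fills with starch and storage protein. ADP-glucose pyrophosphorylase, which makes the sugar nucleotide used for starch, is the enzyme through which carbon enters starch in this tissue.

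The table gave each gene an RPKM value, that is, reads scaled by the length of the gene model and by the library total, so levels can be set side by side between genes. Read totals recovered from the steps in the values were 24093618, 22504199 and 24887952 for replicates 1 to 3, of which 84.6%, 82.8% and 84.8% lay in the rows of the table. The rows with at least 1 read numbered 28395, 26910 and 28610. A floor of 3 reads corresponded to 0.0843, 0.0903 and 0.0816 RPKM for a gene of the median length, 1477 bases. Replicate 2 stood apart from the other two libraries, and each result that rests on it is given in every library.

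A total of 21214 rows, or 59.2%, had a median over the 3 libraries of at least 1 RPKM. At least 10 RPKM was reached by 10497 rows (29.3%), at least 100 RPKM by 985 rows (2.75%) and at least 1000 RPKM by 23 rows. In contrast 5867 rows, or 16.4%, were listed at 0 in all 3 libraries, and 4012 had reads in 1 or 2 of them. Most rows were thus detected, and few were at a high level. The 10 rows of highest median held 6.29%, 5.31% and 6.17% of the summed RPKM in replicates 1 to 3, or 5.92 ± 0.535% (SD, n = 3). The 100 highest held 17.3 ± 0.938% and the 1000 highest 46.8 ± 1.43% (SD, n = 3 each). In replicates 1 to 3, 1098, 1225 and 1261 rows were needed to reach 50% of the summed RPKM. Counted in reads, without scaling by length, the 100 highest rows held 12.3%, 11.5% and 11.4%. Their median length was 802.5 bases, and that of all rows with a recovered length was 1477 bases.

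**Figure D1:**
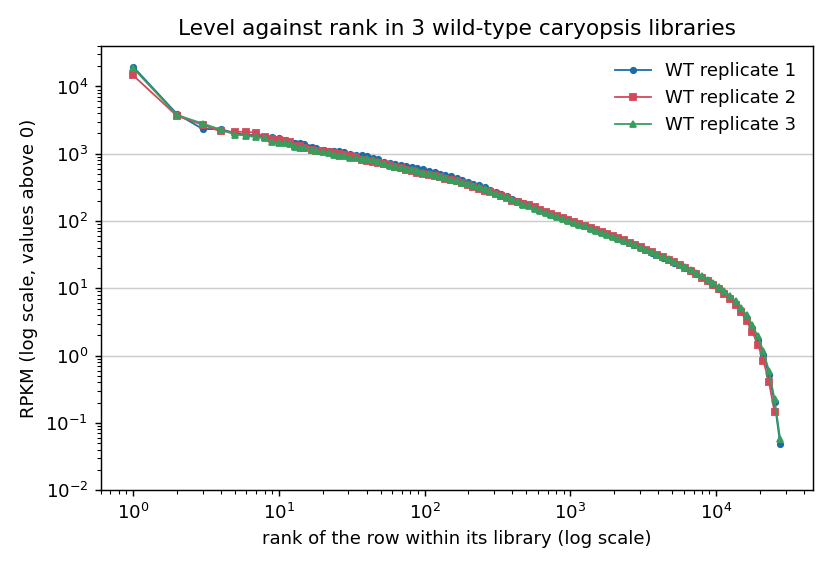
Level of each row (RPKM, log scale) against its rank within its own library (log scale) for the 3 WT libraries, with values above 0. The curves of the 3 libraries run close together in the middle ranks and part at both ends, at the top row, which stood at 19716, 14652 and 18809 RPKM, and below 1 RPKM, where replicate 2 is the lowest.

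One gene stood far above the rest. Os03g0670700, on chromosome 3, had 19716, 14652 and 18809 RPKM in replicates 1 to 3, from 405193, 281263 and 399310 reads over a recovered length of 853 bases. It alone made up 3.15%, 2.44% and 3.07% of the summed RPKM. The second row, Os12g0632000 on chromosome 12, stood at 3906, 3653 and 3765 RPKM. Next came Os03g0808500, again on chromosome 3, stood at 2317, 2118 and 2815 RPKM. The order of the first and second rows was the same in every library, with no overlap between them, and Os12g0632000 and Os03g0808500 did not overlap either. Below them the ranks were close. Os05g0111300, the fourth row, had 1912, 2693 and 2278 RPKM, a range that overlaps that of Os03g0808500. None of these identifiers is paired with a gene name in the sources used here, and of the 30 highest rows 2 carried a name.

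Among rows with a name, the highest were the ribosomal protein genes RPS19A_2 and RPS19A_1, followed by the lipid transfer protein genes LTP110-A_1 and LTP110-A_2. The suffix counts rows that share a name, and reads could be split between such near-identical copies, so the level of each is uncertain. RPS19A_2, the sixth row of the whole table, had 2336, 1633 and 1864 RPKM, and RPS19A_1 had 1469, 1205 and 1238 RPKM. Both proteins carry the name of a component of the small ribosomal subunit. LTP110-A_1 stood at 743, 758 and 839 RPKM and LTP110-A_2 at 593, 642 and 701 RPKM. Lipid transfer proteins are small secreted proteins that bind lipids in the cell wall, and these 2 rows differed between libraries by little, with a coefficient of variation (CV) of 6.64% and 8.37%. No other named row was among the 100 highest.

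The next named rows were AGPL3, DHAR1, ACBP1 and Smt2-1. AGPL3, a large subunit of ADP-glucose pyrophosphorylase, had 396, 333 and 391 RPKM. DHAR1, a dehydroascorbate reductase that regenerates ascorbate, had 355, 559 and 297 RPKM, with replicate 2 well above the others. ACBP1, an acyl-CoA-binding protein, had 351, 242 and 332 RPKM, with replicate 2 the lowest. Smt2-1, a sterol methyltransferase that the gene table also lists as ArsM1, had 286, 255 and 304 RPKM. The jump from this tier to the next was wide: TIFY3, a JAZ repressor of jasmonate signalling, followed with 107, 175 and 112 RPKM, and MSBP1, a membrane steroid-binding protein, with 111, 122 and 104 RPKM. CAX1a, a vacuolar cation/proton exchanger, had 97.2, 100.2 and 115 RPKM. From TIFY3 to the MADS-box gene MADS58 neighbours in the order overlapped in their library values.

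The 11 rows that closed the 25 highest named ones lay between 47.2 and 78.6 RPKM by their median. They included a second sterol methyltransferase, Smt1-1 (78.6, 92.6 and 73.9 RPKM), and TFIIAy, the gamma subunit of the general transcription factor TFIIA (70.5, 100.1 and 67.9 RPKM). RS2, which the gene table also lists as OsPHAN, a MYB factor known from leaf development in other plants, had 68.8, 58.2 and 84.6 RPKM. Values of these 3 genes overlapped. SAPK4, a kinase of the abscisic acid and osmotic stress pathway, had 58.2, 43.7 and 58.7 RPKM. RINO1 encodes the inositol phosphate synthase at the start of phytic acid synthesis, and it had 62.6, 46.2 and 53.9 RPKM. petC, the nuclear gene of the Rieske protein of the cytochrome b6f complex, had 45.2, 59.2 and 52.7 RPKM. LYP6, a LysM-domain receptor protein of innate immunity, had 51.8, 47.6 and 59.0 RPKM. Each neighbouring pair in the order from Smt1-1 to AGPS2 overlapped in its library values. Within libraries, LYP6 stood above AGPS2 each time, while the order of every other pair changed between libraries and is not resolved. The ends of the tier did differ, with Smt1-1 and TFIIAy above LYP6 and AGPS2 in every library.

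**Figure D2:**
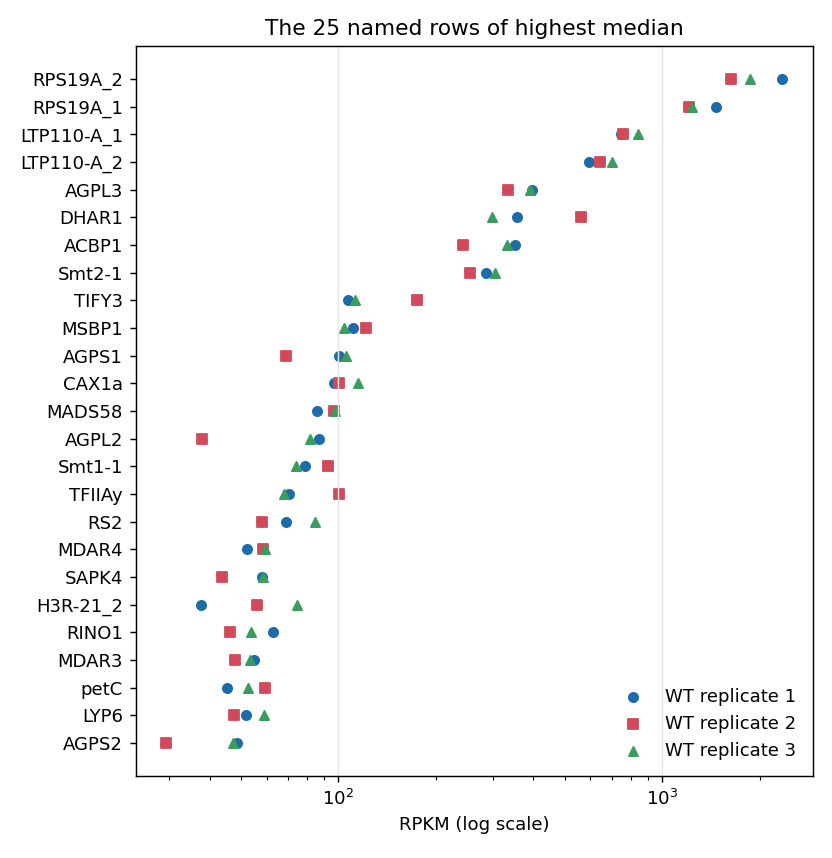
RPKM (log scale) of the 25 rows with a name that had the highest median, 1 symbol per WT library. RPS19A_2 and RPS19A_1 lead above 1000 RPKM, and replicate 2 lies left of the others for AGPL2 (37.9 RPKM) and AGPS2 (29.4 RPKM) and right of them for DHAR1 (559 RPKM) and TIFY3 (175 RPKM).

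Markers of endosperm and of maternal tissue were compared next, to see which tissues the libraries held. Few markers carry a name in the table: 5 of the endosperm list and 27 of the maternal list were found, and 23 of the maternal ones are photosystem genes of the plastid genome. Of the 5 endosperm markers, 4 had a median of at least 1 RPKM, 3 at least 10 RPKM and 0 at least 100 RPKM. These levels were reached by 59.2%, 29.3% and 2.75% of all rows, and 16.4% of all rows were listed at 0 in all 3 libraries. Of the 27 maternal markers, 4 reached 1 RPKM and 2 reached 10 RPKM, and 15 were listed at 0 in all libraries. Those 4 were the nuclear members of the list.

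The endosperm markers were led, at moderate levels, by the ADP-glucose pyrophosphorylase genes AGPL2 and AGPS2. AGPL2, the large subunit of the cytosolic ADP-glucose pyrophosphorylase of endosperm, had 87.4, 37.9 and 81.6 RPKM. AGPS2, the small subunit gene, which gives rise to both a plastid form and the cytosolic endosperm form, had 48.6, 29.4 and 47.2 RPKM, and the row does not separate these forms. DOF3, a factor that binds the prolamin box of storage protein genes, had 18.1, 7.57 and 15.1 RPKM. In all 3 of these genes replicate 2 lay below both other libraries, which it did in 48.1% of all rows at 1 RPKM or more. RISBZ1, a basic leucine zipper factor that switches on storage protein genes, had 2.21, 2.74 and 2.37 RPKM, near the median of all rows (2.48, 2.15 and 2.73 RPKM). The glutelin gene GLUD1, the named seed storage protein, had 3, 8 and 0 reads, or 0.0772, 0.220 and 0 RPKM. Storage protein transcripts of this gene were thus at or close to the floor of 3 reads while starch precursor genes were well above it. AGPL3 and AGPS1, which are not on the marker list, stood above AGPL2 and AGPS2 in every library.

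Nuclear maternal markers were present too. MADS58, a C-class MADS-box gene of carpel identity, had 85.7, 97.0 and 97.4 RPKM, at about the level of AGPL2 in replicates 1 and 3. PORB, a protochlorophyllide oxidoreductase of chlorophyll synthesis, had 15.0, 17.4 and 14.6 RPKM. PSA2, a factor for assembly of photosystem I, had 9.58, 8.96 and 10.3 RPKM, and the MADS-box gene MADS30 had 4.62, 5.69 and 2.97 RPKM. Of these 4, PSA2 was lowest in replicate 2, and by a small margin, while PORB and MADS30 were highest there. Their summed level was 115, 129 and 125 RPKM in replicates 1 to 3, whereas the 5 endosperm markers summed to 156, 77.9 and 146 RPKM. Named genes of both lists were thus found, of which PORB and PSA2 on the maternal list serve the chloroplast. The tissue that these transcripts came from was not tested. The part of tissue makeup in the lower endosperm sum of replicate 2 was not tested.

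The balance between both lists depended on which maternal genes were counted. Over the lists as fixed, the median of log2(RPKM + 1) was higher for endosperm than for maternal markers by 4.26, 3.10 and 4.01 in replicates 1 to 3, but the maternal median was 0, set by the plastid-encoded rows. Without those rows the difference was 0.56, -0.66 and 0.28, with a mean of 0.06 and an SD of 0.64 (n = 3). Its sign turned in replicate 2, where the maternal median was the higher. With 5 and 4 genes no test was made, and the difference without plastid-encoded rows was smaller than its spread between libraries. Plastid transcripts mostly lack a stable poly(A) tail, and the part of the poly-T selection in their low level was not tested.

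Named markers of other tissues were few. OSH1, a homeobox gene of the shoot meristem and early embryo, had 3.00, 6.08 and 5.93 RPKM, and WOX7 had 0.303, 0.915 and 0.560 RPKM. MSP1, a receptor kinase of early anther and ovule development, had 9.55, 11.3 and 9.23 RPKM. MST8, a sugar transporter gene of anthers, was listed at 0 in all 3 libraries. The list of lodicule and stamen markers had no named row. Of the 4 markers found, OSH1 and MSP1 thus had medians between those of the nuclear maternal markers MADS30 and PSA2, and WOX7 and MST8 below 1 RPKM.

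**Figure D3:**
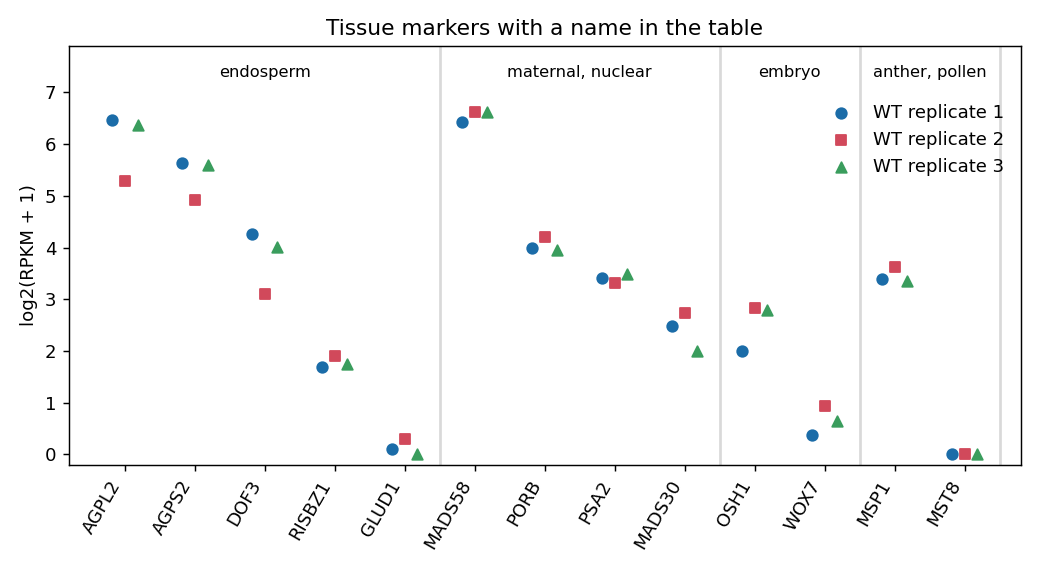
Levels on the log2(RPKM + 1) scale of the nuclear tissue markers that carry a name, 1 symbol per WT library. AGPL2, AGPS2 and DOF3 of the endosperm markers and PSA2 of the maternal ones are lowest in replicate 2, RISBZ1, PORB and MADS30 are highest there, and GLUD1 (0.0772, 0.220 and 0 RPKM) and MST8 lie at the base.

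Named genes of carbon supply differed in level between families. Of all rows 59.2%, 29.3% and 2.75% had a median of at least 1, 10 and 100 RPKM. All 6 named ADP-glucose pyrophosphorylase genes reached 1 RPKM, 5 reached 10 RPKM and 2 reached 100 RPKM. Besides AGPL3, AGPL2 and AGPS2, these were AGPS1 with 101, 68.7 and 106 RPKM, AGPL1 with 11.3, 15.9 and 9.66 RPKM, and AGPL4 below 10 RPKM. The family made up 0.104%, 0.0817% and 0.105% of the summed RPKM, and replicate 2 lay below both others in 5 of its 6 genes, beside 48.1% of all rows at 1 RPKM or more. FLO6, a protein of starch granule formation in the endosperm, had 32.8, 19.8 and 28.3 RPKM, again lowest in replicate 2. In the same libraries 2 of 8 monosaccharide transporter genes of the MST family reached 1 RPKM and 0 reached 10 RPKM. Their medians ran from 0, where MST7 and MST8 were listed, to 4.09 RPKM for MST4. SUT2, named like a sucrose transporter, had 16.9, 15.9 and 18.3 RPKM, although its symbol belongs to more than 1 gene in the gene table. The list of sucrose and sugar transport held no other named gene, so sugar import was seen only in part.

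Of the 6 named genes of ascorbate recycling, 6 reached 1 RPKM and 4 reached 10 RPKM, where 59.2% and 29.3% of all rows did. This list was composed after the names in the table were read. DHAR1 led by far, and DHAR2, the other dehydroascorbate reductase, had a median of 7.60 RPKM. Among the monodehydroascorbate reductases, which act on the radical form of ascorbate, MDAR4 had 52.4, 58.5 and 59.4 RPKM, MDAR3 had 55.0, 47.8 and 53.4 RPKM, and MDAR5 had 18.8, 16.7 and 18.2 RPKM. MDAR4 and MDAR3 overlapped, and MDAR5 lay below both in every library. APX8, a chloroplast ascorbate peroxidase, had 19.5, 16.8 and 17.2 RPKM.

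Lipid and sterol genes were uneven within each family. Of 5 acyl-CoA-binding protein genes, 4 reached 1 RPKM (59.2% of all rows), 3 reached 10 RPKM (29.3%) and 1 reached 100 RPKM (2.75%). ACBP1 was followed at a distance by ACBP4 with 29.8, 39.6 and 30.02 RPKM and ACBP5 with 9.50, 11.9 and 11.5 RPKM. The 4 sterol genes all reached 10 RPKM, with MSBP2 the lowest at 22.3, 32.6 and 24.3 RPKM, and 2 of them reached 100 RPKM. Their sum hardly differed between libraries, at 498, 501 and 507 RPKM.

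All 10 named bZIP and DOF transcription factor genes reached 1 RPKM and 7 reached 10 RPKM, where 59.2% and 29.3% of all rows did, and 0 reached 100 RPKM, which 2.75% of all rows did. DOF2 had 27.0, 43.7 and 25.6 RPKM, and DOF4 had 13.1, 16.4 and 19.01 RPKM. These factors share the DOF zinc finger. RISBZ3 had 25.7, 34.3 and 24.9 RPKM and RISBZ2 had 17.1, 20.4 and 18.5 RPKM, so both were above RISBZ1 in every library. Replicate 2 lay above both others in 4 of 4 RISBZ genes, beside 36.2% of all rows at 1 RPKM or more. These 4 genes were grouped after the names in the table were read. Over all 10 bZIP and DOF genes, replicate 2 lay above both others in 5 and below both in 4. Those below included RF2a and RF2b. Of all rows at 1 RPKM or more, 48.1% lay below both. RF2a (21.4, 20.002 and 21.8 RPKM) and RF2b (22.9, 20.7 and 23.8 RPKM), bZIP factors first known from binding a viral promoter in rice phloem, were close to each other and overlapped. Of 3 MADS-box genes, MADS58 was the one above 10 RPKM.

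Named genes of chromatin and RNA silencing were few. CMT3, a plant DNA methyltransferase that acts outside CG sites, had 25.5, 20.9 and 25.9 RPKM. DCL1, the Dicer enzyme of miRNA processing, had 14.2, 12.8 and 17.5 RPKM. All 4 members of this list reached 1 RPKM and 2 reached 10 RPKM, where 59.2% and 29.3% of all rows did. The 2 rows named for histone H3 transcripts, H3R-21_2 (37.7, 56.03 and 74.7 RPKM) and H3R-21_1 (32.4, 23.1 and 37.0 RPKM), were both above 10 RPKM but spread widely, with a CV of 32.9% and 22.8%. The cell cycle list had 2 named rows, CycF1-4 and CycF2-1, both listed at 0 in all libraries. Other cell cycle genes were not matched to rows here.

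Named genes were matched by symbol to lists of abscisic acid, cytokinin, brassinosteroid and auxin signalling. Of all rows 59.2% and 29.3% reached 1 and 10 RPKM. On the abscisic acid list 3 of 3 members reached 10 RPKM: SAPK4, SAPK8 (25.8, 38.5 and 28.9 RPKM) and the phosphatase gene PP2C13 (32.3, 30.6 and 30.9 RPKM). The part of PP2C13 in this pathway was not tested. Of 6 cytokinin and brassinosteroid genes 5 reached 1 RPKM and 3 reached 10 RPKM. These were the co-receptor kinases SERK2 (18.8, 15.7 and 18.5 RPKM) and SERK4 (10.4, 11.1 and 10.9 RPKM) and the histidine kinase HK3 (11.4, 14.0 and 15.8 RPKM), a cytokinin receptor. Of 3 auxin genes, all reached 1 RPKM and ARF2, whose symbol matches more than 1 gene, reached 10 RPKM with 11.6, 9.54 and 10.98 RPKM. All 3 genes of the TOR growth kinase complex lay within a narrow band, TOR at 16.7, 20.2 and 17.8 RPKM, RAPTOR2 at 11.2, 11.3 and 13.1 RPKM and RAPTOR1 at 10.9, 9.19 and 10.8 RPKM.

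The cytoskeleton list held 3 genes, all with a median of at least 10 RPKM, which 29.3% of all rows had. FH5, a formin that nucleates actin filaments, had 21.6, 28.3 and 24.3 RPKM. RAC1 had 20.4, 33.4 and 19.6 RPKM. The gene table lists this symbol for the actin gene ACT1, but the match rests on the symbol alone. KIN13A, a kinesin that governs grain size in rice and is also listed as SRS3, had 19.9, 7.41 and 21.9 RPKM. Replicate 2 was thus the highest library for FH5 and RAC1 and the lowest, by more than 2-fold, for the kinesin. In the cell wall list UGE-1, a UDP-glucose epimerase, had 22.3, 21.5 and 23.9 RPKM, and the cellulose synthase-like gene CSLD1 stood below 10 RPKM.

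Of 14 members of the defence list 9 reached 1 RPKM, 3 reached 10 RPKM and 1, TIFY3, reached 100 RPKM, where 59.2%, 29.3% and 2.75% of all rows did, so the list was close to the table as a whole. Of the 10 numbered chitinase genes 6 reached 1 RPKM and 2 reached 10 RPKM, Cht6 with 23.98, 25.4 and 41.1 RPKM and Cht1 with 14.1, 11.2 and 33.9 RPKM. In both, replicate 3 was the highest library, and the summed level of the 10 genes was 48.6, 43.2 and 91.5 RPKM. Symbol Cht1 matches more than 1 gene. Of 6 transporters of ions and water, 5 reached 1 RPKM (59.2% of all rows) and 2 reached 10 RPKM (29.3% of all rows), CAX1a and the aquaporin gene NIP3-1 at 10.3, 11.4 and 12.5 RPKM. DMAS1, which acts in making the iron chelator mugineic acid, had 10.8, 7.03 and 10.5 RPKM, and the iron regulator IRO2 had a median of 0.0524 RPKM.

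**Figure D4:**
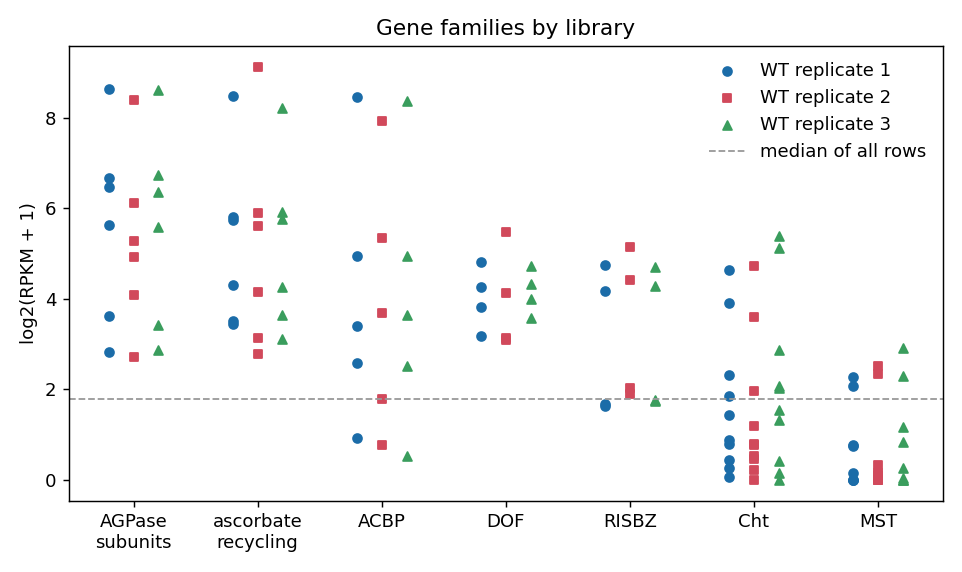
Levels on the log2(RPKM + 1) scale of the members of 7 gene families, 1 symbol per gene and WT library, with the median of all rows as a dashed line. Members of the ADP-glucose pyrophosphorylase (AGPase), ascorbate recycling, DOF and, in part, RISBZ families lie above the line, while most Cht and MST genes lie near or below it.

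Nuclear genes for chloroplast proteins and the genes of the plastid itself differed widely in level. All 12 nuclear genes in a list of chloroplast proteins, composed after the names were read, reached 1 RPKM and 9 reached 10 RPKM, where 59.2% and 29.3% of all rows did. TIC62, of the import and redox machinery of the inner envelope, had 31.6, 16.9 and 34.2 RPKM, and PRIN2, a factor of plastid transcription, had 21.2, 21.2 and 22.3 RPKM. The ferredoxin NADP reductase genes LFNR2 and LFNR1 had 19.4, 18.3 and 23.2 RPKM and 14.2, 13.01 and 15.9 RPKM. GLU, the ferredoxin-dependent glutamate synthase, had 15.3, 15.6 and 16.6 RPKM, and PTAC12, of the plastid transcription complex, had 11.98, 14.1 and 12.7 RPKM. Over the libraries the CV within this list ran from 2.98% for PRIN2 to 33.9% for TIC62, which was lowest in replicate 2.

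The 65 rows of the plastid genome, in contrast, summed to 9.14, 16.6 and 9.84 RPKM, from 226, 339 and 265 reads. Of them 25 were listed at 0 in all libraries, as were 16.4% of all rows. The highest was rbcL, the large subunit of Rubisco, with 0.666, 1.92 and 1.26 RPKM. The 43 rows of the mitochondrial genome summed to 20.6, 43.3 and 18.4 RPKM, led by the ATP synthase gene atp9 with 4.98, 9.68 and 3.04 RPKM. Replicate 2 was above both other libraries in 7 of the 7 mitochondrial rows at 1 RPKM or more, beside 36.2% of all rows at that level. The reads behind these rows were few, 27, 49 and 17 for atp9, and 99, 234 and 113 for the longer ATP synthase gene atp1. The part of the poly-T selection in the levels of plastid and mitochondrial rows, and in their differences between libraries, was not tested.

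Replicate 2 differed from the other libraries across the transcriptome. Pearson's r of log2(RPKM + 1) over the 21214 rows at 1 RPKM or more was 0.989 between replicates 1 and 3, 0.958 between replicates 1 and 2, and 0.954 between replicates 2 and 3, which describes these libraries across genes that are not independent. The median absolute log2 difference was 0.14 between replicates 1 and 3, and 0.28 and 0.30 for the pairs that include replicate 2. In 779 rows replicate 2 lay at least 2-fold outside both others (pseudocount of 1 RPKM), 621 of them below (2.93%) and 158 above (0.745%). The same count was 11 rows for replicate 1 and 46 for replicate 3. Replicate 2 lay below both others in 48.1% of the rows and above both in 36.2%.

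Among named rows at 10 RPKM or more, the 5 with the lowest share in replicate 2 were KIN13A, AGPL2, Cht1, DOF3 and TIC62, with log2 ratios to the mean of replicates 1 and 3 of -1.38, -1.14, -1.04, -1.04 and -0.92. For Cht1 the ratio rests on a high replicate 3, since replicate 2 stood at 11.2 RPKM and replicate 1 at 14.1 RPKM. Of the endosperm list, replicate 2 held 44.8% of the mean of the other libraries for AGPL2, 45.7% for DOF3 and 61.5% for AGPS2, but 120% for RISBZ1, and GLUD1 had too few reads for a ratio. The 5 with the highest share were DHAR1, DOF2, RAC1, TIFY3 and AGPL1, with log2 ratios of 0.78, 0.71, 0.71, 0.67 and 0.55. AGPL1 was the 1 gene of the ADP-glucose pyrophosphorylase family whose highest library was replicate 2, yet the order of the 6 genes by level was the same in every library. A similar gap was seen in 1 of the 10 highest rows of the table, Os03g0369100, picked out after its values were seen, with 1794, 415 and 1508 RPKM. The cause of these differences was not tested.

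For rows between 10 and 100 RPKM the median CV over the 3 libraries was 12.7%, and for rows between 1 and 10 RPKM it was 20.6%. Read counting alone would give 3.41% and 8.13%.

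Transcript output was also uneven along the genome, by the chromosome number given in each identifier. Chromosome 3 held 17.6 ± 0.557% of the summed RPKM (SD, n = 3) with 11.9% of the rows that carry an identifier, and still 15.2% once Os03g0670700 was left out. On chromosome 3, 67.1% of rows reached 1 RPKM. Chromosome 11 was at the other end, with 4.58 ± 0.0525% of the RPKM and 6.38% of the rows, of which 47.9% reached 1 RPKM. Shares of RPKM are over all rows, named rows included, and shares of rows are over rows with an identifier. Chromosomes 2, 5 and 7 also held more of the RPKM than of the rows, and chromosome 8, with 6.76% of the RPKM and 6.85% of the rows, was about level. The 3 libraries differed by little here: the share of chromosome 3 was 17.97%, 16.97% and 17.91%, and that of chromosome 11 was 4.54%, 4.57% and 4.64%.

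**Figure D5:**
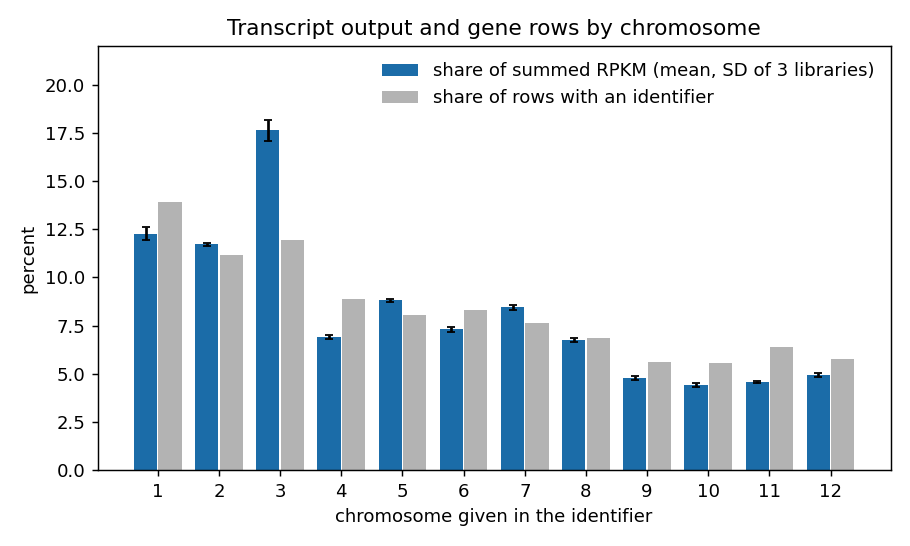
Percent of the summed RPKM (mean of 3 WT libraries, bars of 1 SD) and percent of the rows with an identifier, for each of 12 chromosomes. Chromosome 3 stands above its share of rows (17.6% against 11.9%) and chromosome 11 below it (4.58% against 6.38%).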

How the data were processed

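The authors deposited RPKM values, 1 column per library and a mean per genotype class. The deposited WT mean equalled the mean of the 3 WT columns within rounding. Libraries were made with poly-T beads and a NEBNext Ultra kit, per the labels' protocols, and the submitters' processing notes name the build IRGSP-1.0. Not given in the sources used here are the aligner, the counter, the annotation release and any use of strand, so overlapping, antisense and near-identical genes may share reads. A mutant library without a column was not analysed here.

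Whole reads, totals and gene lengths were recovered from the steps of the RPKM values over 6 library columns. The length taken for a row was the smallest that made its values whole. That 100% of 83915 WT values above 0 were whole within 0.02 reads was thus set by the fit. Of 87 organelle rows with a length, 70 had that of the gene table. Among the others psaC came out shorter, at 123 against 246 bases, and nad1 longer, at 978 against 386 bases. A length that is too short makes the recovered reads of its row too few. Tested on simulated data, the recovery gave exact reads for 98.95% of 5823 genes. Floors and counting errors cover counting only.

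Rows were ranked by the median of the 3 WT libraries, and log values are log2(RPKM + 1). With 1 group, nothing was tested. Means have an SD over n = 3. Python 3.11.15, NumPy 2.4.6, pandas 2.3.3, SciPy 1.17.1 and Matplotlib 3.10.9 were used.

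Of the rows, 35484 carry an identifier and 341 a name. Names come from the table, and 222 of them matched the RefSeq gene table of assembly ASM3414082v1, 23 with more than 1 gene. No gene sequence was used.

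Members and lists were chosen with earlier results of these data known. Of 34 lists, 24 had a member, and 3 wrongly matched genes were taken out by hand. Lists without a named member were lodicule and stamen, NF-Y, Polycomb PRC2, DNA replication, ubiquitin and proteasome, heat shock, gibberellin, ethylene, nitrogen and amino acid metabolism, and amylases and proteases. A further 10 lists were composed after the names in the table were read. Among them were the acyl-CoA-binding, sterol, TOR, ascorbate recycling, chloroplast protein, RISBZ, DOF, MST and numbered chitinase lists. The text names list members at 10 RPKM or more, all tissue markers of nuclear genes, the 25 highest named rows, the 3 highest rows, and the 5 named rows highest and the 5 lowest in replicate 2. Members of the added lists, FLO6, Os05g0111300, organelle genes and members below 10 RPKM were named after their values were seen.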

Additional observations from a re-analysis of the deposited data

How the results depend on the processing

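Few named markers, the unknown counting method and 1 unlike library limit these results, and 3 libraries give a coarse spread. The number of rows at 1 RPKM or more stayed within 1.5 times 21214, from 19830 (1 RPKM in every library) to 23157 (a median of 0.5 RPKM), with 21267 by the mean and 21002 to 21428 when each library was left out. The share of the 100 highest rows, 17.2% by the median library, was 17.0% to 17.8% with each library left out and 17.1% ranked by the mean, but 12.6% in recovered reads, which are not scaled by length.

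The median of the endosperm list, 15.1 RPKM, was 11.3 to 16.6 RPKM with each library left out and 14.8 RPKM with libraries scaled to an equal upper quartile. It was 31.1 RPKM over members with a mean of at least 1 RPKM, since GLUD1 then drops out. The median of the maternal list was 0 with each library left out, and 12.4 RPKM both over members with a mean of at least 1 RPKM and without plastid-encoded rows, an alternative chosen after seeing the data. The difference of endosperm minus maternal list medians, 4.01 on the log2 scale, ranged from 3.55 to 4.13 with each library left out. It was 7.24 with a pseudocount of 0.1, 2.84 for means of members, and 1.07 over members with a mean of at least 1 RPKM. Without plastid-encoded rows it was 0.28. With members of the green-tissue list taken out of the maternal markers it was 0.51. That step left 3 maternal markers, MADS58, MADS30 and PSA2. PSA2, a photosystem I assembly factor not on the green-tissue list, set their median, so this value is not free of photosynthesis genes.

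The 779 rows with replicate 2 at least 2-fold outside both others became 1538 with a pseudocount of 0.1 and 770 with scaling to an equal upper quartile. That count needs 3 libraries, so none was left out. Of 99 named genes 98 moved by less than 1 SD under upper-quartile scaling, FAH being the exception. By the mean or with any library left out 99 did so. With 3 libraries this second outcome holds for any values, so it does not show that the levels are stable. Of 35 lists 15 moved by more than 1 SD with members under a mean of 1 RPKM removed. No paired analysis was possible because only 1 group was described and nothing was tested.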

Other observations

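Some named genes varied less between the libraries than the rest, replicate 2 included; they were picked out after their values were seen. Against a median CV of 12.8% over all rows at 10 RPKM or more, FAH had 30.2, 30.6 and 29.9 RPKM (CV 1.15%) and FAHD2 had 19.3, 19.8 and 19.6 RPKM (CV 1.19%). BRE1A, a histone H2B ubiquitin ligase that the gene table also lists as HUB1, had 16.5, 17.1 and 17.1 RPKM (CV 2.02%). For each of these genes the CV was below that of read counting alone, which was 2.90%, 3.95% and 2.66%. RAC1, whose symbol the gene table gives to the actin gene ACT1, had a CV of 31.6%.

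Identifiers fell into kinds of unequal level. Of 29105 identifiers that end in 00, 67.0% had a median of at least 1 RPKM, and they held 94.7%, 94.8% and 94.6% of the summed RPKM in replicates 1 to 3. Of 6379 identifiers with other endings 24.6% reached 1 RPKM and 38.4% were listed at 0 in all libraries. Neighbouring rows could be silent or active together. On chromosome 6, 18 neighbours from Os06g0514800 to Os06g0521500 were listed at 0 in all libraries, whereas on chromosome 8, 9 neighbours from Os08g0558400 to Os08g0559400 were all at 10 RPKM or more, the highest at 863 RPKM. On chromosome 7, Os07g0523300, Os07g0523500 and Os07g0523700 had the same recovered length, 676 bases, and medians of 981, 977 and 972 RPKM. Near-identical copies may share reads there, which was not tested. Such near-equal pairs, of 1 length and within 0.1 on the log2 scale in each library at 100 RPKM or more, numbered 7.

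Level also went with length. Among rows at 1 RPKM or more, the share at 100 RPKM or more was 9.74% below 500 bases, 11.1% from 500 to 1000 bases, 3.89% from 1000 to 2000 bases, 1.46% from 2000 to 4000 bases and 0.299% above. These values come from recovered lengths and describe the 3 libraries together.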
